A study of Homo sapiens with 8 samples.

Results

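Complex I of the mitochondrial respiratory chain was examined through the genes that the nucleus contributes to it, in mRNA libraries from N/TERT cells, a line of immortalised human keratinocytes. The genes were all those with a symbol that starts with NDUF in the authors' annotated table, leaving out pseudogenes. This gave 47 genes of 61806, of which 46 had at least 10 counts in at least 4 of the 8 libraries and were tested among 14893 genes. The 47 genes were sorted by function into 37 subunits, of which 7 are core and 30 accessory, 8 assembly factors (NDUFAF1 to NDUFAF8), and NDUFA4 and NDUFA4L2. The last pair carry an NDUF name, but NDUFA4 is now placed in complex IV, and both were kept out of the subunits.

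The study compared wild-type N/TERT cells given ethanol, the solvent control (4 libraries), with cells given O/A (4 libraries), which is oligomycin, an inhibitor of the ATP synthase, together with antimycin A, an inhibitor of complex III. O/A depolarises mitochondria and starts their removal by mitophagy, and the cells were collected after 4 hours. All 8 libraries came from this 1 line, grown in serum-free keratinocyte medium, so the replicates are repeat experiments on the same cells and not different donors. The libraries held 17210404 to 20999927 counts with ethanol and 17689760 to 19263046 with O/A. The 6 keratinocyte markers (KRT5, KRT14, TP63, ITGA6, LAMB3 and DSG3) summed to 3063 to 3315 FPKM with ethanol and 2803 to 2961 FPKM with O/A. Its members went both ways, with log2 fold changes of -0.30 for KRT5, -0.09 for KRT14, -0.05 for TP63, 0.14 for ITGA6, 0.24 for LAMB3 and 0.99 for DSG3. The summed FPKM of the other marker lists is given for ethanol, then O/A. It was 2.42 to 2.95 and 2.44 to 2.69 for 5 fibroblast markers, nearly all of it from COL1A1. For 4 melanocyte markers it was 0.33 to 0.64 and 0.27 to 0.66, and MLANA and TYR were at 0 in every library. It was 0.4 to 0.59 and 0.65 to 0.88 for 3 leukocyte markers, nearly all of it from CD68, and 0.03 to 0.06 and 0.02 to 0.04 for 3 endothelial markers. The keratinocyte sum and the leukocyte sum did not overlap between conditions, and their part in the results on complex I was not tested. The libraries were made from many cells of this 1 line, so fewer cells with a transcript and less of it per cell cannot be told apart.

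Complex I takes electrons from NADH, passes them along a chain of iron-sulfur clusters to ubiquinone and pumps protons across the inner mitochondrial membrane. Its core subunits carry the catalysis. Those that hold the NADH site and the iron-sulfur clusters are made from nuclear genes, and the proton-pumping core subunits of the membrane arm are made inside mitochondria from the MT-ND genes. The accessory subunits surround the core and stabilise it, and the assembly factors join parts of the complex in order without staying in the finished enzyme.

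Promoter sequences were read for 39 of the 47 genes from a RefSeq table on GRCh38.p14 that holds a window of 300 bases for each gene, running from before the RefSeq gene start to just past it. Genes with no entry included NDUFA4, NDUFA4L2, NDUFAF6, NDUFB5, NDUFB9, NDUFC2 and NDUFS5. The promoters of NDUFV3 (chr21:42893059-42893358, plus strand) and NDUFA11 (chr19:5903741-5904040, minus strand) are shown because these genes passed both thresholds of the comparison, and that of NDUFA9 (chr12:4648864-4649163, plus strand) because it holds the letters of both the NRF1 and the YY1 motif. Capitals mark motif letters, on either strand. In NDUFA11 they are an E-box at base 119 and an NRF1 motif at base 153, in NDUFA9 an NRF1 motif at base 171 and a YY1 motif at base 261, counted from 1 at the 5′ end.
NDUFV3: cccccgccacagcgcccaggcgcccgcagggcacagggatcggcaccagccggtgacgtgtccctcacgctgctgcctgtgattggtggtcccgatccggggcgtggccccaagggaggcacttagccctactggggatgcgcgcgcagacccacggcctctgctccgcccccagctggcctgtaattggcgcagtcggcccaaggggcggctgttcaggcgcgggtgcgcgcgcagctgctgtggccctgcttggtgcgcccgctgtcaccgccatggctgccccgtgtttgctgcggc
NDUFA11: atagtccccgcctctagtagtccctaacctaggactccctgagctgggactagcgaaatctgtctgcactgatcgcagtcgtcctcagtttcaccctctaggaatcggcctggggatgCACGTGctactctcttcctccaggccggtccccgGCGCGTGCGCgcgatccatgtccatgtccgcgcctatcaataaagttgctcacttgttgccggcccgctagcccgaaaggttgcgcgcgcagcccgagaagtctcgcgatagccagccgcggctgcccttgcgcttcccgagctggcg
NDUFA9: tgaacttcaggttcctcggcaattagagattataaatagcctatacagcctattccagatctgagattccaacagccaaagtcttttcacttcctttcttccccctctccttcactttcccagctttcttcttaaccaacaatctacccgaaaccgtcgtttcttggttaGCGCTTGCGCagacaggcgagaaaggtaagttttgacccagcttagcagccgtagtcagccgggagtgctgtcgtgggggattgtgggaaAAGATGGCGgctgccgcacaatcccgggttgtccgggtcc

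The promoter of NDUFV3 held none of the 6 motifs searched, and the RefSeq start used for it lies inside the longer span that the authors' table gives this gene. The motifs marked in NDUFA11 likewise lie inside the span that this table gives NDUFA11. So does the YY1 motif of NDUFA9 for its gene, while the NRF1 motif of NDUFA9 lies before the span. The NRF1 letters, GCGCA and GCGC with any base between them, were in 7 of the 39 promoters (17.9%) and in 5.78% of 35116 promoters of the same length. The YY1 letters AAGATGGCG were in 5 (12.8%) against 1.75%, the ETS letters CCGGAAG in 6 (15.4%) against 10.3%, and the E-box CACGTG in 4 (10.3%) against 7.26%. The ATF4 letters TGATGNAA were in 1 promoter, that of NDUFS6 (2.56%), against 3.62%, and the ERR letters TCAAGGTCA were in 0 against 0.353%. In all, 18 promoters held at least 1 match, and no match overlapped a match to another motif. The 5 genes with the YY1 letters, NDUFA6, NDUFA7, NDUFA9, NDUFS4 and NDUFS7, had a median log2 fold change of 0.12 with O/A, beside 0.004 for the other genes with a promoter. Apart from NDUFA7, at -0.09, the log2 fold changes of these 5 genes were between 0.12 and 0.13. All 5 are subunits, while the other genes with a promoter include assembly factors. With and without the letters, the median was 0.013 and 0.007 for NRF1, 0.053 and 0.005 for ETS, and 0.042 and 0.008 for the E-box. It was 0.005 and 0.0105 for ATF4, with 1 gene. None of these differences between sets was tested.

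Before treatment, the transcripts of complex I covered a wide range of levels. FPKM, a count scaled to the joined exons of a gene and to the total of its library, was highest for NDUFS5, an accessory subunit on the intermembrane side, at 234 ± 6.08 with ethanol (SD, n = 4). NDUFA1, a small accessory subunit of the membrane arm, followed at 108.5 ± 3.64 FPKM, and NDUFB10 at 58.1 ± 2.13 FPKM. The ethanol range of NDUFB10 overlapped that of the next subunit. The lowest subunits were NDUFA7 at 1.82 ± 0.144 FPKM, NDUFA9 at 2.12 ± 0.157 FPKM and NDUFS7 at 2.26 ± 0.0723 FPKM, and the SDs of NDUFA9 and NDUFS7 overlapped. Of their exonic bases, NDUFA7 shares 32.5%, NDUFA9 10.6% and NDUFS7 51.4% with other genes, and the effect on these levels was not tested. The median was 8.41 FPKM for core subunits, 11.3 FPKM for accessory subunits and 5.69 FPKM for assembly factors. The exonic length used for FPKM joins all annotated exons and ran from 421 bases in NDUFA1 to 19359 bases in NDUFA10, so genes with long annotated ends have a low FPKM beside their count. NDUFA4L2, which is close in sequence to NDUFA4, had 3, 3, 6 and 8 counts with ethanol and 10, 5, 12 and 5 with O/A and was not tested. The order of levels was nearly the same in both conditions, with a Spearman correlation of 0.992 between mean FPKM with ethanol and with O/A over the 47 genes, which share libraries and gene lengths.

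Complex I transcripts differed little between the ethanol and O/A libraries. In edgeR's quasi-likelihood test, with an adjusted p (Benjamini-Hochberg, over the 14893 genes tested) of at most 0.05 and a log2 fold change beyond 0.25 in either direction, 2 of the 46 genes changed (4.35%), beside 34.7% of all genes tested. The accessory subunit NDUFA11 rose, where 15.8% of all genes rose, and the accessory subunit NDUFV3 fell, where 18.9% fell. Among the 10321 genes with mean counts within the range of the complex I genes, 39% passed both thresholds, among 3308 genes within the middle of that range 37.7% did, and among protein-coding genes 36.1% did. The median log2 fold change was 0.02 over the 46 genes, with values from -0.40 to 0.26, and -0.0004 over all genes tested.

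By the adjusted p alone, 14 of the 46 genes passed (30.4%), 9 higher and 5 lower with O/A, beside 53.7% of all genes tested (26% higher and 27.7% lower) and 59.2% of those in the same count range. Among the higher 9 were NDUFS5, NDUFA1, NDUFA6, NDUFS4, NDUFA10, NDUFA5, NDUFB5 and NDUFA11, and the lower 5 were NDUFV3, NDUFB3, NDUFAF3, NDUFAF1 and NDUFAF6. With library totals in place of TMM scaling, 4 were higher and 6 lower. Without ethanol replicate 4 or without O/A replicate 1, 5 were higher and 4 lower, and without ethanol replicate 2 or without O/A replicate 3, 9 were higher and 3 lower. The 4 ethanol and 4 O/A levels did not overlap in 6 genes that were higher and 4 that were lower (21.7% in all), beside 22.8% higher and 24.8% lower (47.6% in all) of all genes tested. The 95% interval of the log2 fold change lay wholly between -0.25 and 0.25 for 34 of the 46 genes (73.9%), beside 29.4% of all genes and 32.8% of those in the same count range. The SE of the log2 fold change had a median of 0.055 for complex I genes and 0.059 for genes in the same count range, so the values of both sets were about equally precise.

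**Figure D1:**
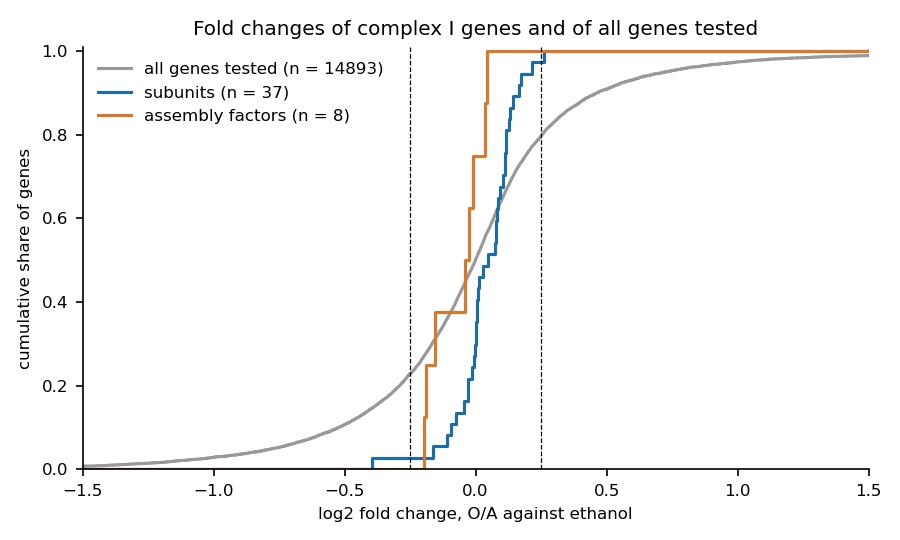
Cumulative share of genes (vertical) at or below each log2 fold change of O/A against ethanol (horizontal) for all 14893 genes tested, the 37 subunits and the 8 assembly factors; dashed lines mark -0.25 and 0.25. The curves of subunits and assembly factors rise steeply between the dashed lines, while the curve of all genes spreads beyond both.

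NDUFV3, a small accessory subunit near the NADH-oxidising tip of the complex, had the largest difference of the 46 genes. Its level, in CPM, a count set against the TMM-scaled size of its library, was 34.5, 38.3, 37.2 and 34.9 in the 4 ethanol libraries and 28.6, 28.1, 28.5 and 24.7 in the 4 O/A libraries. Each O/A library was below each ethanol library, and O/A replicate 4 was the lowest. The log2 fold change was -0.40 (SE 0.054, 95% interval -0.51 to -0.29), a level that fell by 24.0%, with an adjusted p of 1.42e-08 by edgeR's quasi-likelihood test. Its counts were 641 to 742 with ethanol and 430 to 538 with O/A. In FPKM its level was 5.79 ± 0.304 with ethanol and 4.26 ± 0.286 with O/A (SD, n = 4). The gene lies on chromosome 21 (GRCh38.p13, chr21:42879644-42913304, plus strand), and none of its exonic bases are shared with another gene in GENCODE v44. It passed both thresholds in all 20 alternatives, with log2 fold changes from -0.44 to -0.35, and without O/A replicate 4 its value was -0.35.

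NDUFA11, an accessory subunit of the membrane arm, was the 1 gene that rose past both thresholds. Its TMM-scaled CPM was 20.2, 19.5, 16.4 and 20.7 with ethanol and 22.1, 22.7, 23.0 and 24.4 with O/A. The groups did not overlap, and ethanol replicate 3 was the lowest library. The log2 fold change was 0.26 (SE 0.066, 95% interval 0.13 to 0.39), with an adjusted p of 0.000733 by edgeR's quasi-likelihood test, so that the value was just past the threshold of 0.25. It was 0.19 without ethanol replicate 3, 0.23 without O/A replicate 4, 0.22 with library totals or on log2(FPKM + 0.1) and 0.18 on log2(FPKM + 1), and NDUFA11 then no longer passed. Its span (chr19:5891276-5904006, minus strand) shares 12.1% of its exonic bases with other genes. The authors' strand setting is not given in the sources used here, and whether reads in the shared bases were gained or lost was not tested.

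The 7 nuclear core subunits hold the flavin, the iron-sulfur clusters and the ubiquinone site. By edgeR's quasi-likelihood test 0 of the 7 passed both thresholds, beside 34.7% of all genes tested. Of the 7, 0 had a log2 fold change beyond 0.25 at an unadjusted p under 0.05, and DESeq2 also called 0. NDUFS7, which carries the iron-sulfur cluster next to ubiquinone, had a log2 fold change of 0.13 (SE 0.067, adjusted p 0.107 by edgeR). Its TMM-scaled CPM was 17.1, 16.3, 15.8 and 17.0 with ethanol and 17.4, 18.5, 17.9 and 18.7 with O/A, groups that did not overlap. NDUFS7 shares 51.4% of its exonic bases with genes on the opposite strand.

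Further core subunits lay close to 0. The log2 fold change was 0.03 (SE 0.032) for NDUFS1, the largest iron-sulfur subunit, and 0.008 (SE 0.033) for NDUFV1, which binds NADH and the flavin. It was 0.003 (SE 0.077) for the iron-sulfur subunit NDUFV2, -0.005 (SE 0.058) for the iron-sulfur subunit NDUFS8 and -0.03 (SE 0.053) for NDUFS3, a subunit between the NADH and ubiquinone ends. The 95% intervals of all of these lay between -0.25 and 0.25, the widest being that of NDUFV2, -0.15 to 0.16. NDUFV2 has a processed copy whose reads came to 9.1% of its own, and adding them gave a log2 fold change of -0.0005. For the other members, copies and read-through genes that carry the member's name had at most 1.14% of its reads. Overlapping genes under other names were not counted.

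Among the 30 accessory subunits, 8 were higher (26.7%) and 2 lower (6.67%) by the adjusted p alone, beside 26% and 27.7% of all genes tested, and NDUFA11 and NDUFV3 passed both thresholds. Of the 13 NDUFA genes, 5 were higher (38.5%, beside 26% of all genes) and 0 lower (adjusted p by edgeR, with 0 lower also at an unadjusted p under 0.05 and by DESeq2), and their median log2 fold change was 0.11. The median was 0.05 over the 11 NDUFB genes, with 1 higher and 1 lower, and -0.01 over the other 6 (NDUFC1, NDUFC2, NDUFS4, NDUFS5, NDUFS6 and NDUFV3), with 2 higher and 1 lower. Several single genes are given here that were named after their values were seen. NDUFB5, in the far part of the membrane arm, had TMM-scaled CPM of 50.4, 49.3, 49.0 and 49.2 with ethanol and 59.7, 54.7, 59.6 and 55.6 with O/A. All O/A libraries were above the ethanol libraries, which lay within 1.5 CPM of each other, and the log2 fold change was 0.21 (SE 0.042, adjusted p 2.26e-05 by edgeR). NDUFB3, of the same part of the membrane arm, went the other way, with TMM-scaled CPM of 56.8, 59.1, 60.1 and 52.8 with ethanol and 52.0, 50.6, 51.1 and 50.2 with O/A. The groups did not overlap, and the log2 fold change was -0.16 (SE 0.043, adjusted p 0.00117 by edgeR).

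NDUFA5, which lies near the ubiquinone end, had TMM-scaled CPM of 81.6, 88.8, 90.5 and 81.4 with ethanol and 95.5, 95.5, 100.7 and 91.4 with O/A. The groups were apart by less than 1 CPM, and the log2 fold change was 0.17 (SE 0.038, adjusted p 0.000212 by edgeR). NDUFA10, of the membrane arm, had 82.6, 88.0, 80.7 and 83.0 CPM with ethanol and 84.9, 94.2, 95 and 94.7 CPM with O/A, where replicate 1 lay within the ethanol range. Its log2 fold change was 0.14 (SE 0.037, adjusted p 0.00111 by edgeR). The log2 fold change was 0.12 for both NDUFA6 (SE 0.048) and NDUFS4 (SE 0.048), with adjusted p of 0.0381 and 0.0363 by edgeR and groups that overlapped. The 3 subunits with the highest FPKM had log2 fold changes of 0.07 (NDUFS5, SE 0.031, adjusted p 0.0398 by edgeR), 0.11 (NDUFA1, SE 0.044, adjusted p 0.0282) and -0.08 (NDUFB10, SE 0.041). NDUFAB1, the mitochondrial acyl carrier protein, had a value of 0.08 (SE 0.049, adjusted p 0.167 by edgeR). NDUFA7 had 38 to 56 counts per library, the fewest of the genes tested here, and its interval of -0.44 to 0.25 does not show whether it changed. NDUFA9, at 0.13 (SE 0.061), had an adjusted p of 0.0653 by edgeR. NDUFA4 of complex IV had a log2 fold change of 0.03 (SE 0.033).

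**Figure D2:**
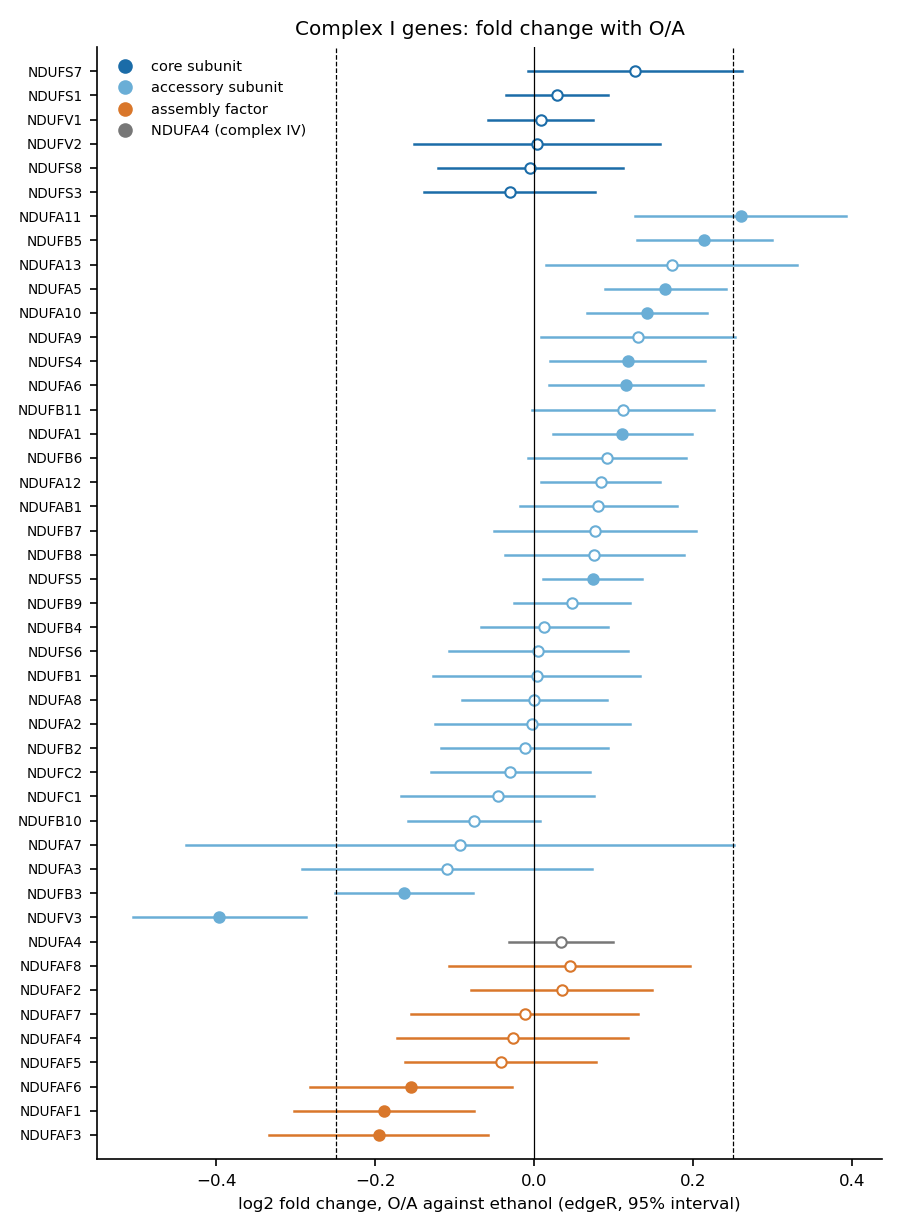
Log2 fold change of O/A against ethanol (horizontal; dots, with 95% intervals as lines) for the complex I genes shown, grouped by class, with filled dots for an adjusted p of at most 0.05 by edgeR and dashed lines at -0.25 and 0.25. NDUFV3 at -0.40 and NDUFA11 at 0.26 lie outside the dashed lines, and all 3 filled dots among the assembly factors lie below 0.

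The 8 assembly factors had a median log2 fold change of -0.03, which was 0.01 with quantile normalization. By edgeR's quasi-likelihood test 0 of 8 passed both thresholds, beside 34.7% of all genes tested, and 0 of 8 passed by DESeq2. By the adjusted p of edgeR alone 3 of 8 were lower and 0 higher, the same counts as at an unadjusted p under 0.05. The share of 37.5% lower was near the 27.7% of all genes tested. The count was 2 by DESeq2, with 0 higher, and 1 without ethanol replicate 2, without O/A replicate 3 or with quantile normalization. The 3 were NDUFAF3, NDUFAF1 and NDUFAF6. NDUFAF3, which acts early on the part of the complex that binds ubiquinone, had TMM-scaled CPM of 18.6, 21.9, 19.3 and 19.7 with ethanol and 17.9, 17.2, 15.8 and 18.6 with O/A. Its groups met, O/A replicate 4 lying just under ethanol replicate 1, and the log2 fold change was -0.20 (SE 0.068, adjusted p 0.0134 by edgeR). NDUFAF3 shares 14.4% of its exonic bases with DALRD3 on the opposite strand.

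NDUFAF1, a member of the assembly complex of the membrane arm, had TMM-scaled CPM of 27.4, 28.7, 30.2 and 27.7 with ethanol and 26.5, 23.4, 24.9 and 25.1 with O/A. All O/A libraries were lower, and the log2 fold change was -0.19 (SE 0.056, adjusted p 0.00388 by edgeR). NDUFAF6, an early-acting factor, had TMM-scaled CPM of 21.3, 22.3, 20.9 and 23.0 with ethanol and 18.9, 18.6, 19.9 and 21.4 with O/A, where replicate 4 lay within the ethanol range. Its log2 fold change was -0.15 (SE 0.063, adjusted p 0.0357 by edgeR). NDUFAF4, the binding partner of NDUFAF3, had a log2 fold change of -0.03 (SE 0.072) and NDUFAF2, a late-acting chaperone, had 0.03 (SE 0.057). The arginine hydroxylase NDUFAF5 had -0.04 (SE 0.060), its partner NDUFAF8 had 0.04 (SE 0.075) and the arginine methyltransferase NDUFAF7 had -0.01 (SE 0.071). All 5 of these intervals lay between -0.25 and 0.25.

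Set side by side, the subunits and the 8 assembly factors with an NDUF name lay on opposite sides of 0 by small amounts. The median log2 fold change was 0.05 over the 37 subunits, of which 26 were above 0, and -0.03 over the 8 assembly factors, of which 6 were below 0. The 13 assembly factors without an NDUF name, described below, had a median of 0.03, with 7 above 0 and 6 below. They are not part of the values that follow. Where only genes with a mean FPKM of 5 or more were fitted, 34 of the 46 genes remained. The median of the subunits left was then -0.003. That of the 8 assembly factors was 0.01 with quantile normalization, and each of these values lay on the other side of 0. For each library, the median over the genes of a class was taken of the log2 difference from the ethanol mean. For the subunits this was -0.016, 0.045, 0.008 and -0.046 in the ethanol libraries and 0.046, 0.050, 0.070 and 0.050 in the O/A libraries. The highest ethanol library and the lowest O/A library differed by less than 0.01. For the assembly factors it was -0.004, 0.052, -0.024 and -0.063 with ethanol and -0.052, -0.044, -0.116 and -0.068 with O/A, and the groups overlapped through ethanol replicate 4. Within each library, subunits minus assembly factors gave -0.013, -0.007, 0.033 and 0.017 with ethanol and 0.098, 0.094, 0.186 and 0.118 with O/A, all O/A libraries above all ethanol libraries. Summed over the 37 subunits, TMM-scaled CPM was 1689 ± 42.6 with ethanol and 1747 ± 7.85 with O/A (SD, n = 4), and over the 8 assembly factors it was 168.5 ± 4.43 and 160.2 ± 2.46. The sums depend on the TMM scaling. With library totals in its place, the median log2 fold change was 0.0021 for the subunits and -0.0799 for the assembly factors. Since the genes were chosen with earlier results of these data known, these medians and sums carry no p.

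The fold changes of the complex I genes showed little relation to gene structure. Spearman correlations of the log2 fold change over the 46 genes were 0.12 with exonic length, 0.04 with genomic span and 0.04 with mean FPKM in ethanol, and -0.03, 0.02 and -0.003 over all genes tested. These are across genes of the same libraries and carry no p. The 47 genes are spread over the chromosomes, with 6 on chromosome 19 as the most on any of them, and all 47 had the same start and end in the authors' table and in GENCODE v44.

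Other genes of complex I without an NDUF name moved in both directions. Of 13 other assembly factors, 1 rose and 1 fell past both thresholds, beside 15.8% and 18.9% of all genes tested, and the median log2 fold change was 0.03. Without ethanol replicate 3 or without O/A replicate 2, 2 fell. ECSIT, which assembles the membrane arm together with NDUFAF1, rose with a log2 fold change of 0.40 (SE 0.067, adjusted p 9.36e-07 by edgeR), from 2.86 ± 0.228 to 3.66 ± 0.256 FPKM. TMEM70, which assists the assembly of complex I and of the ATP synthase, fell with a log2 fold change of -0.38 (SE 0.057, adjusted p 8.44e-08 by edgeR), from 10.1 ± 0.266 to 7.53 ± 0.492 FPKM. The counts of ECSIT were 293 to 353 with ethanol and 390 to 448 with O/A, and those of TMEM70 were 523 to 616 and 372 to 450, so that neither gene overlapped between conditions.

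Of the 7 complex I subunits encoded in mitochondrial DNA, 2 rose (28.6%) and 2 fell (28.6%) past both thresholds, beside 15.8% and 18.9% of all genes tested. Without O/A replicate 2, 1 rose. The largest difference was in MT-ND6, the 1 subunit gene on the light strand, which had 1346 to 1891 counts with ethanol and 159 to 237 with O/A, a log2 fold change of -2.89 (SE 0.081, adjusted p 3.57e-14 by edgeR). MT-ND3 had a log2 fold change of -0.32 (SE 0.027), MT-ND4 0.30 (SE 0.076) and MT-ND4L 0.28 (SE 0.074), with adjusted p of 5.13e-14, 0.0147 and 0.0179 by edgeR. These genes were read from poly(A)-selected RNA and overlap on a compact genome, which limits how far their levels compare with those of nuclear genes.

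The nuclear subunits of the other complexes also lay close to 0. Of 43 tested genes of complexes II to V, NDUFA4 among them, 1 rose and 0 fell past both thresholds (2.33%) by edgeR, beside 15.8% and 18.9% of all genes tested. DESeq2 gave the same counts for the 43 genes, and 0 fell beyond 0.25 at an unadjusted p under 0.05. The gene that rose was COX7A2L, which helps to join respiratory complexes into supercomplexes, with a log2 fold change of 0.53 (SE 0.038, adjusted p 4.16e-17 by edgeR) and 1018 to 1235 counts with ethanol against 1498 to 1664 with O/A. By the adjusted p alone, 11 were higher (25.6%) and 5 lower (11.6%), beside 26% and 27.7% of all genes tested. Of the 43 intervals, 41 lay between -0.25 and 0.25 (95.3%), beside 29.4% over all genes. The median log2 fold change was 0.0008 for 4 genes of complex II, 0.04 for 9 of complex III, 0.08 for 12 of complex IV and 0.01 for 18 of complex V.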

How the data were processed

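mRNA was measured in 8 N/TERT libraries, and the condition and replicate of each were taken from the sample labels. Per the study's methods and the submitters' processing notes, read pairs were mapped by HISAT2 2.0.1 to GRCh38.p13, and the authors made the counts on Ensembl genes by HTSeq 0.6.1. The Ensembl release and the strand setting are not given in the sources used here. The deposited counts are not normalized. The authors derived the FPKM of each gene from its count, its exonic size and the library total. The authors also deposited their DESeq2 comparison (mean signal, fold change, error, statistic and p-values), which was not used. Libraries of 1 condition differed by more than sampling noise (chi-square per degree of freedom 1.67 to 4.87), so each counted as 1 replicate. The study calls them independent experiments, the labels name no separate cultures, and the p-values measure the spread between these libraries.

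The main test was the quasi-likelihood test of edgeR 4.0.16 (R 4.3.3), run in its robust form on TMM-scaled counts without a block. A gene entered if 4 or more libraries had 10 or more counts of it, p-values were adjusted over all 14893 by the Benjamini-Hochberg method, and a call needed an adjusted p of at most 0.05 and a log2 fold change beyond 0.25. The procedure was tested on simulated data. Symbols were taken from the authors' table, or from GENCODE v44 where it had none. Promoters came from RefSeq, and the 6 motifs were searched on both strands. The alternatives were DESeq2 1.42.0, limma 3.58.1 on log2(FPKM + 0.1) and log2(FPKM + 1), other scalings, filters and thresholds, added pseudogene or read-through reads, a replicate block and leaving out each library. Pseudogenes and read-through genes were found by name alone.

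The genes and lists were chosen with earlier results of these data known. Named were the genes past both thresholds, the 7 core subunits, the 8 assembly factors and, by FPKM, the 3 highest and 3 lowest subunits. Also named were NDUFA4, NDUFA4L2, NDUFAB1, genes with copies over 5% of their reads and genes that an alternative moved across a threshold. From every other list, up to 3 called genes each way were named. NDUFA5, NDUFA6, NDUFA10, NDUFB3, NDUFB5 and NDUFS4 were added after their values were seen. Some results are not reported here. Replicate numbers did not pair the samples: deviations of same-numbered libraries correlated at 0.0389, -0.00212, -0.0226 and 0.0675.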

Additional observations from a re-analysis of the deposited data

Results flagged for a closer look

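In 94 groups of 4 libraries, 4 held a library far from the other 3 by Dixon's test at its 95% critical value, where chance alone gives about 4.7. In NDUFA10, O/A replicate 1 had a TMM-scaled CPM of 84.9, beside 94.2 to 95 in the other O/A libraries. In NDUFV3, O/A replicate 4 was at 24.7, beside 28.1 to 28.6. In NDUFAF5, ethanol replicate 3 was at 22.2, beside 24.4 to 24.6, and in NDUFB6 the same library was at 37.4, beside 35.2 to 35.5.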

How the results depend on the processing

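NDUFV3 passed both thresholds in all 20 alternatives, while NDUFA11 lost its call in 5 of 19 and was not tested at a mean FPKM of at least 5. Its log2 fold change was 0.215 with library totals, 0.219 on log2(FPKM + 0.1), 0.182 on log2(FPKM + 1), and 0.193 to 0.302 with a library left out. Called subunits that rose thus numbered 0 with library totals, log2(FPKM + 0.1), log2(FPKM + 1), a mean FPKM of at least 5 and a fold threshold of 1, and 0 to 1 with a library left out. With no fold threshold, 9 subunits rose and 2 fell, and 3 assembly factors fell. With a fold threshold of 1, 0 subunits fell. Over all genes, 3868 rose with no fold threshold, 382 rose and 415 fell at a fold threshold of 1, 1097 rose and 1086 fell at a mean FPKM of at least 5, and 1514 rose on log2(FPKM + 1). With the replicate block, 2354 genes rose and 2806 fell, 5117 of the 5165 calls were shared, and the block changed no call among the complex I genes. Replicate numbers 1 and 4 correlated best with their own number, and 2 and 3 did not. DESeq2 shared 4787 calls.

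The median log2 fold change of the subunits was 0.0021 with library totals, 0.00134 on log2(FPKM + 0.1), 0.00106 on log2(FPKM + 1) and -0.0032 at a mean FPKM of at least 5. That of the assembly factors was -0.0799 with library totals, -0.0775 on log2(FPKM + 0.1), -0.124 at a mean FPKM of at least 5 and 0.0105 with quantile normalization. The fit at a mean FPKM of at least 5 held 34 of the 46 genes, so its medians are over fewer subunits and fewer assembly factors. Library totals moved the median of all genes to -0.0458, and relative to it the subunits were at 0.0479 and the assembly factors at -0.0341, beside 0.0481 and -0.0341 with TMM. FPKM is likewise set against library totals. On log2(FPKM + 0.1) the median of all genes was -0.0428, and relative to it the subunits were at 0.0441 and the assembly factors at -0.0347. For the other changes the cause was not tested.

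Genes near 0 changed sign without passing a threshold. With library totals, log2(FPKM + 0.1) and log2(FPKM + 1), in that order, the log2 fold change was -0.0114, -0.012 and -0.0116 for NDUFA4, -0.0106, -0.0127 and -0.0105 for NDUFAF2, and -0.000839, -0.00414 and -0.00376 for NDUFAF8. In the same order it was -0.0166, -0.0175 and -0.016 for NDUFS1, -0.0374, -0.0372 and -0.0357 for NDUFV1, and -0.0423, -0.0508 and -0.0432 for NDUFV2. With quantile normalization it was -0.00227 for NDUFA4, 0.0208 for NDUFAF4, 0.000255 for NDUFAF5, 0.0343 for NDUFAF7, -0.0152 for NDUFS1, 0.0273 for NDUFS8 and -0.0263 for NDUFV1. With protein-coding genes alone it was 0.00189 for NDUFAF7 and 0.00874 for NDUFS8, and for NDUFS8 also 0.00192 by DESeq2 and 0.00239 with median-ratio scaling. At a mean FPKM of at least 5 it was -0.00756 for NDUFV1 and -0.0122 for NDUFV2, and for NDUFV2 also -0.00175 with no filter, -0.000453 with pseudogene reads added and -0.00312 with the replicate block. With a library left out, ranges were -0.0062 to 0.0619 for NDUFAF2, -0.0657 to 0.0319 for NDUFAF4, -0.0495 to 0.0102 for NDUFAF7, -0.0785 to 0.0163 for NDUFS3, -0.0458 to 0.0305 for NDUFS8, -0.0056 to 0.0274 for NDUFV1 and -0.058 to 0.0603 for NDUFV2.

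Depth limits NDUFA7 and NDUFA4L2 most, with at most 56 and 12 counts per library.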
